A study of Mus musculus with 8 samples.

Results

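Schwann cell and nerve genes are followed here through 8 genes, S100b, Fabp7, Pmp22, Mbp, Sox10, Ngfr, Cnp and Gfra3, out of 18193 genes measured. They were taken by name, as all probe sets annotated to exactly 1 of these symbols, which gave 22 of 45037 probe sets. The 8 arrays, 4 for Hyp and 4 for WT (wild type), measured total RNA of whole tibia and femur from males at 12 days of age. Hyp mice lack the 3′ part of Phex on a C57BL/6 background and model X-linked hypophosphatemia, in which the kidney wastes phosphate and bone mineralizes poorly; for the WT samples the strain label says only wild type. Each RNA combined 2 bone samples of 1 genotype, the mice were kept on a standard diet, and nerve is 1 of many tissues in whole bone. In such bulk samples fewer cells of a type and less RNA per cell cannot be told apart.

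Schwann cells wrap the axons of peripheral nerves, including those that enter bone through periosteum and marrow. Myelinating Schwann cells build compact myelin from proteins such as MBP and PMP22, under the transcription factors SOX10 and EGR2, while immature and non-myelinating cells carry the neurotrophin receptor NGFR. Several of these genes do not belong to nerve alone: S100b is also a protein of chondrocytes and adipocytes, Ngfr marks some stromal cells, and Pmp22 and Cnp are made in many tissues.

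The data show no common shift of these genes in Hyp bone. S100b rose, Fabp7 and Pmp22 fell, and Mbp, Sox10, Ngfr, Cnp and Gfra3 did not pass the test on gene means (limma, Benjamini-Hochberg adjusted p under 0.05 over all genes). That is 3 of 8 genes, beside 12.9% of all genes tested (6.54% higher and 6.32% lower in Hyp). The same shares stand beside every count of list genes given below. Members and lists were chosen with earlier results of these data known, so no count here can show an excess of change among nerve genes. At single probe sets 5 of 22 passed, 3 higher (S100b and Sox10) and 2 lower (Fabp7 and Pmp22), beside 7.13% of all probe sets (3.22% higher and 3.91% lower). Groups did not overlap at 6 of 22 probe sets, beside 15.5% of all (8.33% with Hyp higher and 7.13% with Hyp lower). The median difference, Hyp minus WT, was 0.039 over the 8 genes and 0.025 over all genes on the log2 scale. The deposited values are centred on a median of 0 per probe set, so every value below is relative to the middle of the 8 arrays, and levels, including whether a nerve marker was detected, cannot be read. The label of Schwann cell genes could therefore not be checked by level; 3 of the 8 changed, in both directions.

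**Figure D1:**
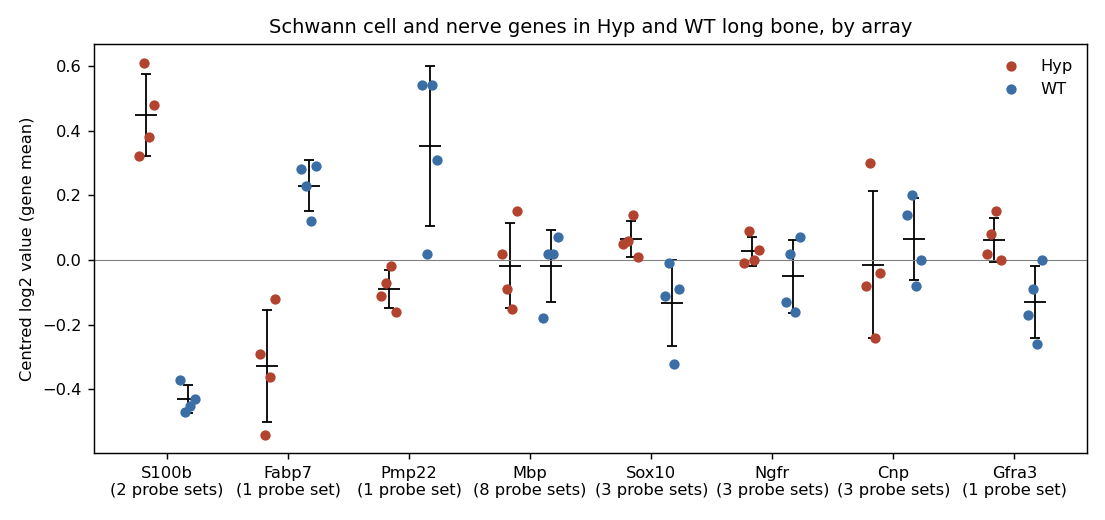
Centred log2 value (gene mean over its probe sets) of the 8 genes on each array, with Hyp in red and WT in blue; the black bar is the group mean and the whisker ±SD (n = 4 arrays each). For S100b the Hyp arrays span 0.32 to 0.61 and the WT arrays -0.47 to -0.37, Fabp7 and Pmp22 lie the other way, and the groups overlap for Mbp, Ngfr and Cnp.

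The windows around the start sites of 3 of the genes are shown because S100b and Fabp7 passed the test in opposite directions and because the Cnp window alone held words of both SOX and EGR factors. They run from 250 bases before to 50 bases after the start, on the plus strand of mouse chromosomes 10 and 11 (RefSeq, GRCm38.p6), 5′ to 3′. S100b is at chr10:76253586-76253885, Fabp7 at chr10:57784673-57784972 and Cnp at chr11:100574689-100574988. Capitals mark CCAAT or its reverse complement in S100b and Fabp7, and ACAAAG and GCGTGGG in Cnp.
S100b: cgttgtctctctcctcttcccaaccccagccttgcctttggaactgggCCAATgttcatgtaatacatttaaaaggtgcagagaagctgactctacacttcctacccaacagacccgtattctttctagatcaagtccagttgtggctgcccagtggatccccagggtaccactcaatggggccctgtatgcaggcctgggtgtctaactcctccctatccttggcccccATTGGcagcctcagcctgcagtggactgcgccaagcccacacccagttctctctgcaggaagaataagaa
Fabp7: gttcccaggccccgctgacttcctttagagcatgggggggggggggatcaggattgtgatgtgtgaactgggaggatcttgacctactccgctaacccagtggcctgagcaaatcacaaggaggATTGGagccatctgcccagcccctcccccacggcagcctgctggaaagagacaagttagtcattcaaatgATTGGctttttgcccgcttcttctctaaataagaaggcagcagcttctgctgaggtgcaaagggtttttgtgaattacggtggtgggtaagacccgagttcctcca
Cnp: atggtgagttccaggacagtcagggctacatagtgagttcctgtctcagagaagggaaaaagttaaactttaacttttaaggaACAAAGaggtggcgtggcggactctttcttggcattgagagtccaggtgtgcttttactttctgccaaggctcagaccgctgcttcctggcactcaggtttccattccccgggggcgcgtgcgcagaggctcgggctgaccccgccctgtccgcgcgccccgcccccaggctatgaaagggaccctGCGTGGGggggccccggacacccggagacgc
The SOX words ACAAAG and ACAATG, the EGR word GCGTGGG and CCAAT were searched on both strands, and none overlaps another in the windows shown. CCAAT was added after the windows were seen. In S100b, CCAAT matches begin 202 and 20 bases before the start, and in Fabp7 they begin 126 and 56 bases before it. Among all 32851 windows of this length, 37.4% hold CCAAT, 28.6% hold ACAAAG or ACAATG, and 5.04% hold GCGTGGG. Of 8 windows of the 5 member genes searched (S100b, Fabp7, Pmp22 with 4 starts, Ngfr and Cnp), 1 held a SOX word and the same 1 held the EGR word, and 4 held CCAAT (S100b, Fabp7 and 2 of Pmp22). These matches describe letters in the windows and carry no measurement of binding.

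S100b encodes a calcium-binding protein that is a classic antigen of Schwann cells and other glia. It was the member with the largest difference and rose at both of its probe sets. At probe set 1434342_at the values were 0.30, 0.75, 0.52 and 0.56 in Hyp bone, against -0.50, -0.71, -0.30 and -0.54 in WT bone. At 1419383_at they were 0.34, 0.47, 0.23 and 0.40 in Hyp bone, against -0.24, -0.23, -0.60 and -0.32 in WT bone. Every Hyp array lay above every WT array at both probe sets. The differences were 1.05 ± 0.11 (SE, n = 4 per group; limma adjusted p = 0.000359) at the first and 0.71 ± 0.09 (limma adjusted p = 0.00127) at the second. On the gene mean S100b was 0.45 ± 0.13 in Hyp and -0.43 ± 0.05 in WT (SD, n = 4 each), a difference of 0.88 ± 0.07 (SE), or 1.84-fold (limma adjusted p = 4.17e-05). It ranked 29 of 18193 genes by p.

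Other S100 genes went both ways. Of 12 measured relatives 3 rose and 1 fell, with a median of 0.023. S100a4, a calcium-binding protein of motile and fibroblast-like cells, rose by 0.68 ± 0.09 (SE; limma adjusted p = 0.000677), S100a3 by 0.40 ± 0.10 (limma adjusted p = 0.0225) and S100a6 by 0.35 ± 0.07 (limma adjusted p = 0.0118). S100a1, a close relative of S100b found in muscle and cartilage, fell by 0.22 ± 0.05 (limma adjusted p = 0.0201). Without any 1 of Hyp replicate 2, Hyp replicate 4 and WT replicate 1, S100a1 lay between -0.22 and -0.21 (limma adjusted p from 0.0518 to 0.0542). S100a3 lay between 0.33 and 0.40 without any 1 of Hyp replicate 2, Hyp replicate 3 and WT replicate 1 (limma adjusted p from 0.0561 to 0.0611).

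Since chondrocytes also make S100b, the chondrocyte list is given beside it. Of 16 measured cartilage genes 5 rose and 3 fell, with a median of 0.219. The number that rose was 2 without Hyp replicate 2, Hyp replicate 3 or WT replicate 1, 3 without Hyp replicate 1, and 2 with both WT replicate 3 and Hyp replicate 2 left out or with the replicate number as a block. Col2a1, the main cartilage collagen, rose by 0.78 ± 0.16 (SE; limma adjusted p = 0.00888), and Hapln1, a link protein of cartilage matrix, rose by 0.62 ± 0.13 (limma adjusted p = 0.0129). Acan, Matn3 and Comp, chosen for naming once their values were known, made up the other 3 rises, and their groups overlapped, as did those of Hapln1. Col11a1 and Col11a2, minor collagens of cartilage, fell by 0.78 ± 0.06 (limma adjusted p = 5.78e-05) and 1.01 ± 0.10 (limma adjusted p = 0.000181). By array the list mean ran from -0.07 to 0.19 in Hyp and from -0.20 to 0 in WT, with Hyp replicate 4 among the WT arrays. Adipocyte markers, the other source named above, held 1 rise and 1 fall among 10 measured. Fabp4 lay at 0.55 ± 0.15 (limma adjusted p = 0.0412) and Adipoq at -0.46 ± 0.13 (limma adjusted p = 0.0379), and both groups of arrays overlapped for each. None of the 4 Fabp4 probe sets passed alone (limma adjusted p from 0.0505 to 0.212). Adjusted among probe sets, the only Adipoq probe set did not pass either (limma adjusted p = 0.0623). Leaving out any 1 of 6 arrays (Hyp replicates 2, 3 and 4 and WT replicates 1, 2 and 4) put Fabp4 between 0.42 and 0.59 (limma adjusted p from 0.0591 to 0.101). For Adipoq any 1 of 7 arrays (all but Hyp replicate 4) did so, with -0.50 to -0.38 (limma adjusted p from 0.0559 to 0.0982). The part of these cell types in the rise of S100b was not tested.

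Fabp7 encodes the brain-type fatty acid binding protein, made by radial glia and by Schwann cells and their precursors. It fell in Hyp bone at its only probe set, 1450779_at. The values were -0.29, -0.54, -0.36 and -0.12 in Hyp bone, against 0.28, 0.23, 0.12 and 0.29 in WT bone. All Hyp arrays lay below all WT arrays, with Hyp replicate 2 the lowest. The difference was -0.56 ± 0.08 (SE, n = 4 per group; limma adjusted p = 0.00169 among gene means), a Hyp over WT ratio of 0.68. Among 12 measured relatives that bind fatty acids or retinoids, 3 fell and 1 (Fabp4) rose, with a median of -0.107. Fabp3, the muscle and heart form, fell by 0.53 ± 0.07 (limma adjusted p = 0.000869), but its probe sets disagreed: 1 lay at -1.05 ± 0.15 and the other at -0.01 ± 0.09. Crabp2, which carries retinoic acid, fell by 0.49 ± 0.07 (limma adjusted p = 0.00173), and Fabp5 by 0.20 ± 0.06 (limma adjusted p = 0.0398). The call of Fabp5 was lost without any 1 of 7 arrays (all but Hyp replicate 4), where it lay between -0.22 and -0.17 (limma adjusted p from 0.0515 to 0.119).

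**Figure D2:**
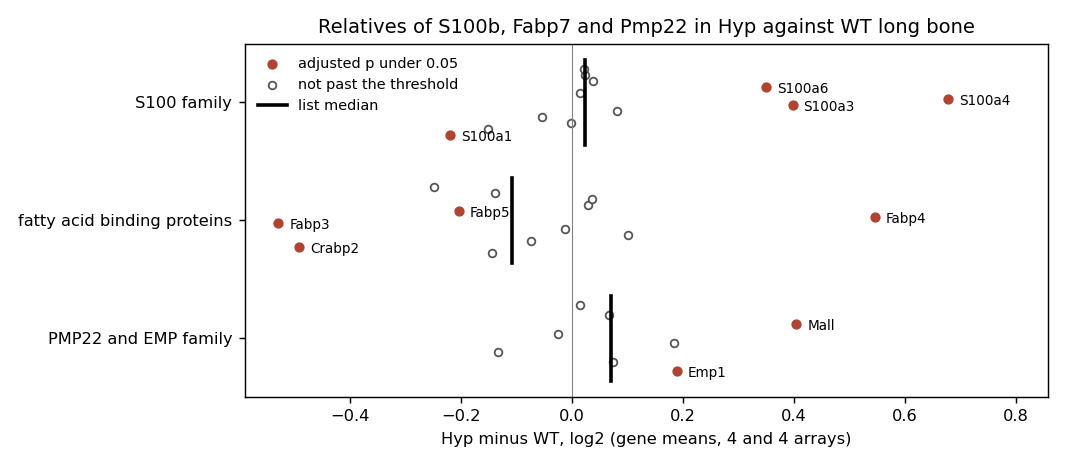
Hyp minus WT on the log2 scale (gene means) for relatives of S100b, Fabp7 and Pmp22; filled points passed (limma adjusted p under 0.05), open points did not, and the bar is the list median. S100 genes run from S100a1 at -0.22 to S100a4 at 0.68, and fatty acid binding proteins from Fabp3 at -0.53 to Fabp4 at 0.55.

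Pmp22 encodes a membrane protein of compact peripheral myelin whose duplication causes Charcot-Marie-Tooth disease in humans, and it is also made by fibroblasts and bone cells. At its only probe set, 1417133_at, it was -0.11, -0.07, -0.02 and -0.16 in Hyp bone, against 0.54, 0.02, 0.54 and 0.31 in WT bone. The Hyp arrays lay close together and the WT arrays were spread, with WT replicate 2 next to the Hyp arrays. The fall of Pmp22 was -0.44 ± 0.10 (limma adjusted p = 0.0208; SE, 4 arrays a group). The call was lost without any 1 of 3 arrays. The difference was -0.43 without Hyp replicate 1 (limma adjusted p = 0.0533) and -0.41 without Hyp replicate 4 (limma adjusted p = 0.0552). Without WT replicate 1 it was -0.37 (limma adjusted p = 0.065). Adjusted among probe sets (limma adjusted p = 0.0379), the call was lost without any 1 array but WT replicate 2. Among 8 measured relatives and myelin-associated tetraspan genes, 2 rose and none fell. Mall, a raft protein, rose by 0.41 ± 0.06 (limma adjusted p = 0.00114) and Emp1, an epithelial membrane protein close to PMP22, by 0.19 ± 0.05 (limma adjusted p = 0.0259). Emp1 lay between 0.18 and 0.20 without any 1 of 5 arrays (Hyp replicates 1, 3 and 4 and WT replicates 1 and 2), with limma adjusted p from 0.0536 to 0.0707. Neither of the 2 Emp1 probe sets passed alone (limma adjusted p = 0.0643 and 0.115).

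Osteoblast markers are set beside Pmp22 because bone cells make it. Of 8 measured, 6 fell and 1 rose (median -0.447), and the list mean ran from -0.28 to -0.11 in Hyp arrays and from 0.15 to 0.28 in WT arrays. The gene that rose, named after its value was seen, was Col1a1 at 0.47 ± 0.12 (limma adjusted p = 0.026); no osteoblast marker rose without any 1 of Hyp replicates 2 and 3 and WT replicates 1, 2 and 4. Tmem119 and Ifitm5, membrane proteins of osteoblasts, fell by 0.75 ± 0.06 (SE; limma adjusted p = 4.89e-05) and 1.22 ± 0.09 (limma adjusted p = 4.89e-05). Sp7, the osteoblast transcription factor, fell by 0.71 ± 0.08 (limma adjusted p = 0.000199), and Dlx5, another, by 0.42 ± 0.04 (limma adjusted p = 0.000182). Fibroblast and tendon markers also held more falls than rises, 4 and 1 of 11. Mkx, a tendon transcription factor, fell by 0.89 ± 0.09 (limma adjusted p = 0.000122), Fmod by 0.86 ± 0.09 (limma adjusted p = 0.000214) and Pdgfra, a receptor of fibroblasts, by 0.47 ± 0.07 (limma adjusted p = 0.00152), while Thbs4 rose by 2.95 ± 0.43 (limma adjusted p = 0.00137). The other fall, named after its value was seen, was Dcn at -0.29 ± 0.08 (limma adjusted p = 0.0384). The part of bone and fibroblast cells in the fall of Pmp22 was not tested.

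Mbp encodes myelin basic protein, which binds the cytoplasmic faces of myelin; its locus also makes golli transcripts in cells outside the nervous system. It had 8 probe sets and none passed. On the gene mean Mbp was 0.02, -0.09, -0.15 and 0.15 in Hyp bone, against -0.18, 0.02, 0.02 and 0.07 in WT bone, and the groups overlapped. The mean difference was 0 ± 0.08 (SE, n = 4 per group; limma adjusted p = 1). Single probe sets differed by -0.22 to 0.20 (limma adjusted p from 0.119 to 0.875), 4 of them above 0 and 4 below. They also differed in how far they ranged over the 8 arrays, from 0.25 to 1.09 on the log2 scale. The widest, 1433532_a_at, was -0.19, -0.17, -0.30 and 0.64 in Hyp bone, against -0.45, 0.17, 0.51 and 0.29 in WT bone, and the spread within a genotype exceeded the difference between genotypes.

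Cnp encodes a phosphodiesterase of myelinating glia that is also present in lymphoid and other tissues. It was -0.08, 0.30, -0.24 and -0.04 in Hyp bone, against 0.14, 0.20, -0.08 and 0 in WT bone. Hyp replicate 2 was the highest array and Hyp replicate 3 the lowest, so both ends lay in 1 genotype. The difference was -0.08 ± 0.11 (SE, n = 4 per group; limma adjusted p = 0.684), and its 3 probe sets lay between -0.17 and -0.03. It was -0.18 without Hyp replicate 2 and 0 without Hyp replicate 3.

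Sox10, the transcription factor that keeps Schwann cell identity and turns on myelin genes, had a positive difference at each of its 3 probe sets, and 1 of them passed. At 1451689_a_at Sox10 was 0.05, 0.15, 0.22 and 0.05 in Hyp bone, against -0.16, -0.05, -0.27 and -0.10 in WT bone. There the groups did not overlap, and the difference was 0.26 ± 0.07 (SE, n = 4 per group; limma adjusted p = 0.0481). The call at this probe set was lost under 13 of 15 alternatives, among them leaving out any 1 of the 8 arrays (limma adjusted p from 0.0444 to 0.143 over the 15). On the gene mean Sox10 was 0.06 ± 0.05 in Hyp and -0.13 ± 0.14 in WT (SD, n = 4 each), a difference of 0.20 ± 0.07 (SE; limma adjusted p = 0.0919). WT replicate 3 was the lowest WT array, at -0.53 at 1425369_a_at, and without it the gene mean differed by 0.13 (limma adjusted p = 0.136). The muscle list mean stood at 1.58 on this array and at 0.23 or less on the other 7, and 0 of 16 muscle genes passed (Mb at -0.35 ± 0.13, limma adjusted p = 0.118, and Myh2 at -1.63 ± 0.64, limma adjusted p = 0.125). Whether muscle in this sample bears on Sox10 was not tested.

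Ngfr, the low-affinity neurotrophin receptor of immature Schwann cells, was -0.01, 0.09, 0 and 0.03 in Hyp bone, against -0.13, 0.02, -0.16 and 0.07 in WT bone. The groups overlapped, and the difference was 0.08 ± 0.06 (SE, n = 4 per group; limma adjusted p = 0.465), with 0.04 without WT replicate 3 and 0.12 without WT replicate 4. Gfra3, the co-receptor that binds artemin together with the kinase RET, was 0.02, 0.08, 0.15 and 0 in Hyp bone, against -0.17, -0.09, -0.26 and 0 in WT bone. The groups only just did not overlap, with Hyp replicate 4 and WT replicate 4 both at 0 to 2 decimals. The difference was 0.20 ± 0.06 (SE, n = 4 per group; limma adjusted p = 0.0715), and without WT replicate 4 it was 0.24 (limma adjusted p = 0.0445). In all, 5 of the 8 genes had groups that did not overlap (S100b, Fabp7, Pmp22, Sox10 and Gfra3), beside 19.2% of all genes (10.3% with Hyp higher and 8.89% with Hyp lower).

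**Figure D3:**
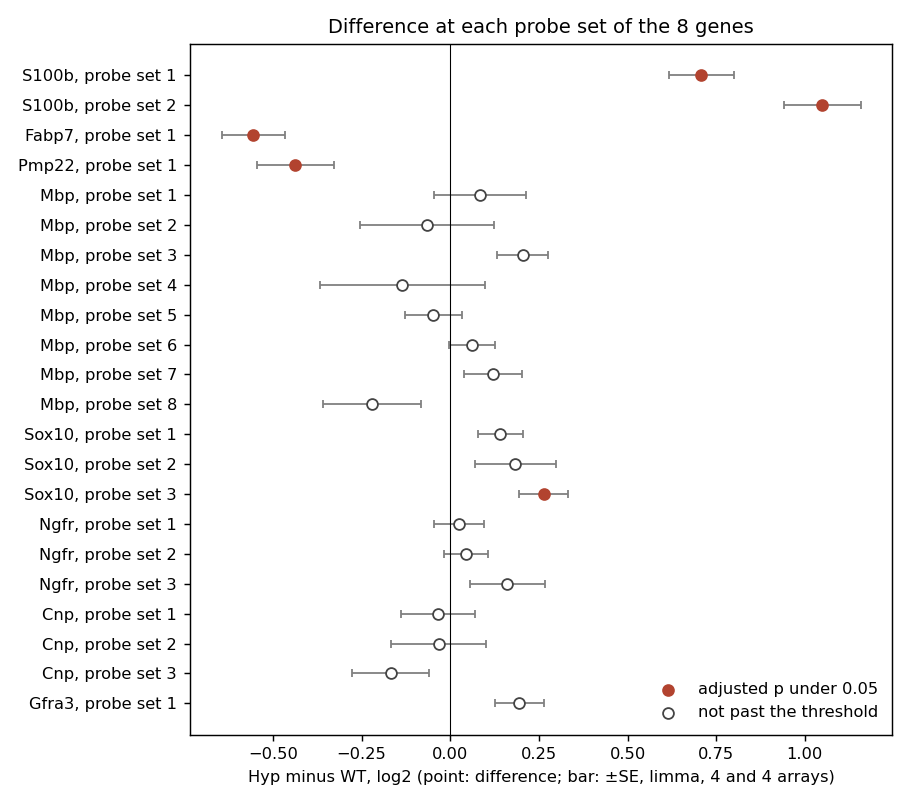
Hyp minus WT on the log2 scale at each of the 22 probe sets of the 8 genes, with SE from limma (4 arrays per group); filled points passed (adjusted p under 0.05). Both S100b probe sets lie right of 0, the Fabp7 and Pmp22 probe sets left of 0, and the 8 Mbp probe sets lie between -0.22 and 0.20 on both sides of it.

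Other genes of the nerve were taken from lists by function, and some of them passed singly. Each list count below stands beside the 12.9% of all genes that passed (6.54% higher and 6.32% lower in Hyp). Adjusted among probe sets, the single probe sets of Artn, Npy, Uchl1, Sox8 and Dct did not pass (limma adjusted p from 0.0599 to 0.0775). Ligands and receptors come first. Among 8 measured genes of the GDNF family, 2 rose and none fell. Ret, the receptor kinase, rose by 0.22 ± 0.05 (SE; limma adjusted p = 0.0151), and Artn, which encodes artemin, the ligand of GFRA3, rose by 0.26 ± 0.07 (limma adjusted p = 0.0297). Ret was 0.20, 0.13, 0.21 and 0.09 in Hyp bone, against -0.06, -0.12, -0.07 and -0.01 in WT bone, though neither of its 2 probe sets passed alone. Artn was 0.04, 0.16, 0.18 and 0.06 in Hyp bone, against -0.11, -0.32, -0.13 and -0.04 in WT bone. Both had groups that did not overlap, and the call of Artn was lost without any 1 of Hyp replicates 2 and 3 and WT replicates 1 and 2, with 0.20 to 0.27 (limma adjusted p from 0.0579 to 0.0801). Gdnf itself lay at 0.01 ± 0.07 (limma adjusted p = 0.951).

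Of 11 measured neurotrophins and receptors 1 fell and none rose: Maged1, an adaptor that binds NGFR, fell by 0.45 ± 0.04 (SE; limma adjusted p = 0.00012). It was -0.20, -0.22, -0.20 and -0.22 in Hyp bone, against 0.27, 0.24, 0.22 and 0.20 in WT bone. Arrays of a genotype differed by no more than 0.07 for this gene. Among 14 neuregulin and axon contact genes 1 rose and 2 fell. Cadm4, the adhesion molecule by which Schwann cells contact axons, rose by 0.52 ± 0.09 (limma adjusted p = 0.0033), while Cadm1, a relative made in many tissues, fell by 0.53 ± 0.06 (limma adjusted p = 0.000197). Bace1, the protease that activates neuregulin, fell by 0.29 ± 0.05 (limma adjusted p = 0.00554), and Erbb3, the neuregulin receptor of Schwann cells, lay at 0.18 ± 0.06 (limma adjusted p = 0.0883).

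Of 16 measured transcription factors of the lineage 1 rose and 2 fell. Egr2, which drives myelination in Schwann cells and is also an early-response gene elsewhere, was 1.05, 0.72, 0.69 and 0.29 in Hyp bone, against -0.29, -0.79, -0.47 and -0.45 in WT bone. The groups did not overlap, and it rose by 1.19 ± 0.15 (SE; limma adjusted p = 0.000526). Nab2, a co-repressor of EGR factors, fell by 0.46 ± 0.10 (limma adjusted p = 0.0162), and without WT replicate 1 it lay at -0.45 (limma adjusted p = 0.0505). Sox8, a relative of Sox10, fell by 0.25 ± 0.07 (limma adjusted p = 0.0388), a call lost without any 1 array but Hyp replicate 3, with -0.27 to -0.19 (limma adjusted p from 0.0538 to 0.0928).

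Myelin genes mostly did not pass. Of 16 measured 2 rose and 1 fell, with a median of 0.026. Ugt8a and Fa2h, which make galactosylceramide and the hydroxylated fatty acids of myelin lipids, rose by 0.24 ± 0.05 (SE; limma adjusted p = 0.00774) and 0.28 ± 0.07 (limma adjusted p = 0.0202). Tspan2, a tetraspanin of oligodendrocytes and other cells, fell by 0.36 ± 0.07 (limma adjusted p = 0.00884). Mag, the myelin-associated glycoprotein, lay at 0.13 ± 0.09 (limma adjusted p = 0.409). The call of Fa2h was lost without any 1 of Hyp replicate 1, Hyp replicate 3 and WT replicate 1, with 0.25 to 0.26 (limma adjusted p from 0.0565 to 0.0673), and with the replicate number as a block.

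Among 19 measured markers of non-myelinating and immature Schwann cells 1 rose (Cadm4) and 2 fell, with a median of 0.122 and 13 of 19 above 0. The number that rose was 3 without WT replicate 2, so more rose than fell there, and 2 without Hyp replicate 4. It was 3 with array weights and 2 with the probe set of largest SD for each gene. With shared-probe suffixes left out, 1 fell. Sema3b, a secreted semaphorin, fell by 0.70 ± 0.08 (SE; limma adjusted p = 0.000286), and Cdh2 (N-cadherin), which osteoblasts carry too, by 0.52 ± 0.06 (limma adjusted p = 0.000311). Both were lower on every Hyp array than on every WT array. Axon and neuron markers held 1 rise and 1 fall among 19, Npy at 0.24 ± 0.06 (limma adjusted p = 0.0254) and Uchl1 at -0.26 ± 0.07 (limma adjusted p = 0.0288). Each of these calls was lost without any 1 of 6 arrays (for Npy all but Hyp replicate 4 and WT replicate 3, for Uchl1 all but Hyp replicate 2 and WT replicate 3), with limma adjusted p from 0.0569 to 0.0702 for Npy at 0.21 to 0.24 and from 0.0569 to 0.0784 for Uchl1 at -0.27 to -0.20.

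Perineurium and endoneurium markers held 1 rise among 14, Sfrp5 at 0.21 ± 0.06 (SE; limma adjusted p = 0.0461), which was lost without any 1 array but WT replicate 4, at 0.16 to 0.24 (limma adjusted p from 0.0526 to 0.101). No central glia marker of 10 passed, though Gja1 did with shared-probe suffixes left out (-0.27, limma adjusted p = 0.0478); the smallest p were those of Gja1 at -0.13 ± 0.05 (limma adjusted p = 0.112) and Opalin at 0.17 ± 0.08 (limma adjusted p = 0.195). Of 8 melanocyte markers, given because melanocytes also carry Sox10, 1 fell, Dct by 0.22 ± 0.05 (limma adjusted p = 0.0232). That call was lost without any 1 of Hyp replicates 2 and 4 and WT replicates 1 and 4, with -0.21 to -0.20 (limma adjusted p from 0.0604 to 0.0769). Of 10 genes of neuromuscular junctions, spindles and satellite cells none passed, with Etv4 at 0.26 ± 0.08 (limma adjusted p = 0.0605) and Chrna1 at -0.18 ± 0.08 (limma adjusted p = 0.172). Without Hyp replicate 4 Etv4 lay at 0.33 (limma adjusted p = 0.02).

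**Figure D4:**
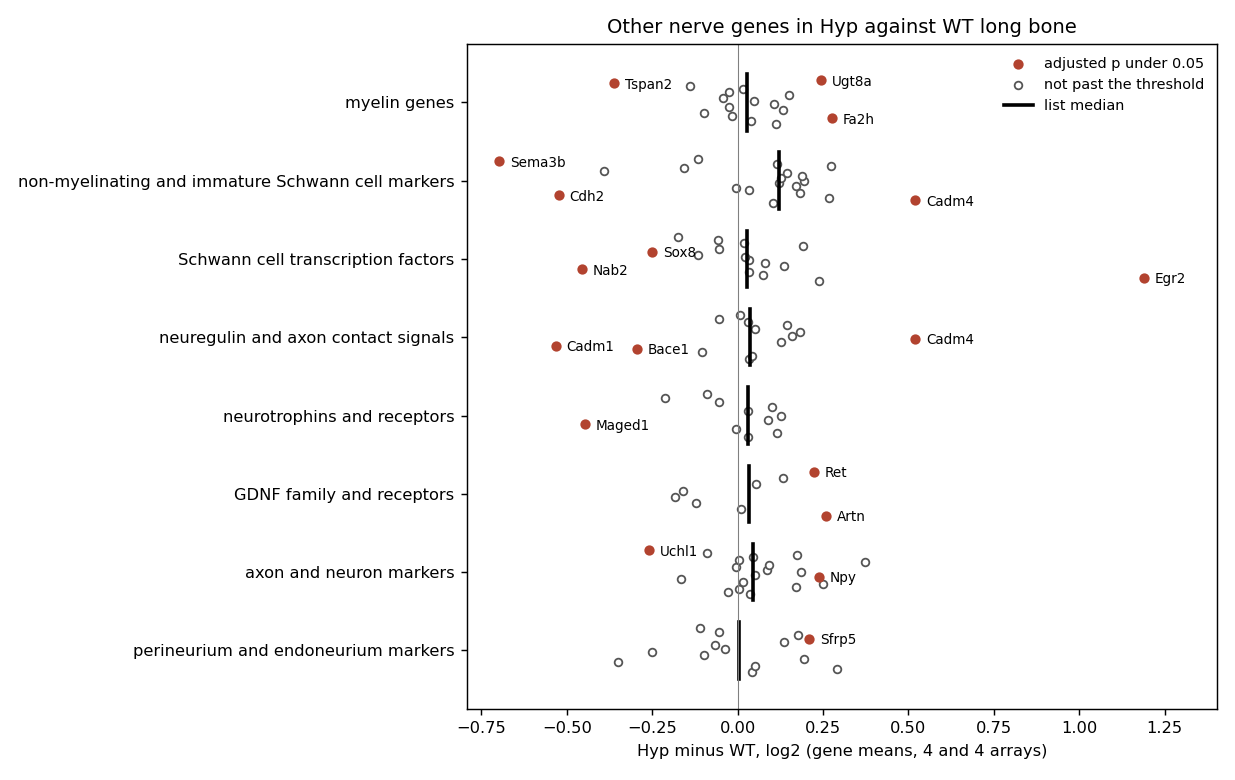
Hyp minus WT on the log2 scale (gene means) for 8 lists of other nerve genes; filled points passed (limma adjusted p under 0.05), open points did not, and the bar is the list median. The medians lie between 0.003 and 0.122, and the points past the threshold lie on both sides of 0, from Sema3b at -0.70 to Egr2 at 1.19.

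**Figure D5:**
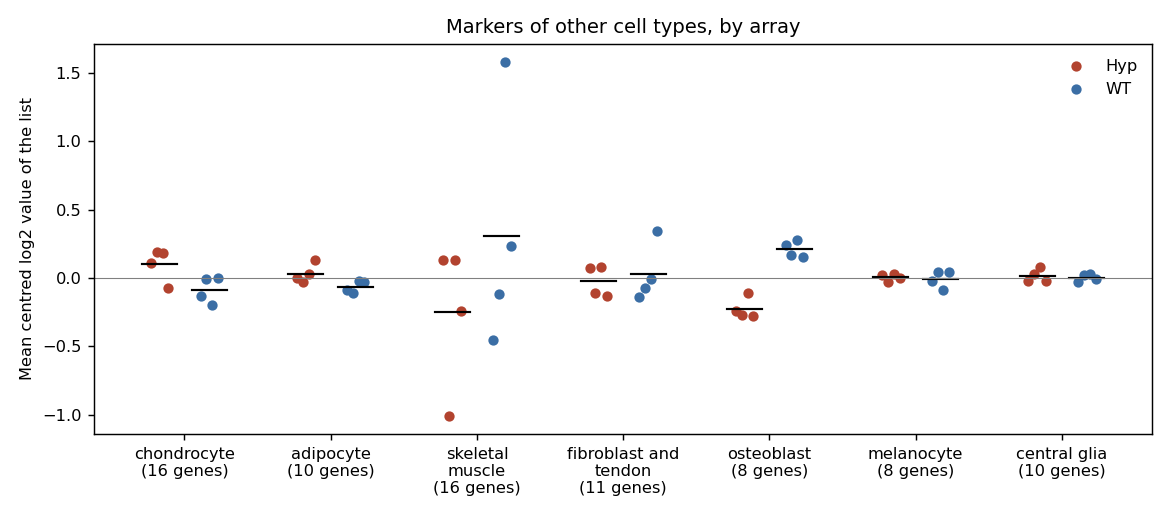
Mean centred log2 value of marker lists of other cell types on each array, with Hyp in red and WT in blue and the bar at the group mean (4 arrays each). Osteoblast markers separate the genotypes (-0.28 to -0.11 in Hyp, 0.15 to 0.28 in WT), the chondrocyte and adipocyte lists overlap, and WT replicate 3 stands at 1.58 in the muscle list.

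Genes whose values lay nearest to those of a member were found by the root mean square difference of gene means over the 8 arrays, for the 3 members that passed. Nearest to S100b were Fgf7, a fibroblast growth factor of stromal cells, at 0.0767, Mrc1, the mannose receptor of macrophages, at 0.0808, and Chst1, a sulfotransferase, at 0.10. Ift20, a protein of cilia, Rabac1 and Lbh were nearest to Fabp7, at 0.0644, 0.0716 and 0.0795. For Pmp22 they were Gdpd5 at 0.0705, Fbn2, a fibrillin of elastic fibres, at 0.108, and Adamts3, a procollagen protease, at 0.109, whose 2 probe sets disagreed (-0.74 and 0.10). Their differences, whose direction the choice by likeness fixed, ran from -0.61 ± 0.07 (SE; Ift20) to 0.98 ± 0.06 (Fgf7).

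As a check of the labels, Phex was -2.99, -3.55, -3.48 and -3.65 in Hyp bone, against 3.48, 3.31, 2.95 and 3.26 in WT bone, and Fgf23 was between 2.39 and 3.16 in Hyp and between -3.09 and -2.39 in WT. The position of the Phex probe sets against the deleted stretch is unknown here. Of the variance over all probe sets, 39.2% lay on an axis that set Hyp apart from WT; on the next (22.6%) WT replicate 3 stood at -38.4 and the other arrays between -10.3 and 17.5.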

How the data were processed

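Biotin-labelled total RNA of 4 Hyp and 4 WT samples was hybridised to 1 array each, per the labels. The labels do not say from how many animals a sample came, so the spread behind each p-value is that between RNA samples, which may be technical. The authors deposited log2 values made with RMA, per the submitters' processing notes (version not given in the sources used here). The median of the 8 deposited values was 0 within 5e-07 for each probe set, so they had been centred, which the labels do not mention, and base 2 was assumed as RMA gives it. Levels and detection cannot be read, so a filter on dim probe sets and a variance trend were not run. The number of arrays limits the precision (median SE 0.0811 over probe sets).

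Of 45101 probe sets 64 controls were left out. Platform annotation gave 1 symbol for 34945, several for 932 and none here for 9160, and symbols were updated through a RefSeq table of GRCm38.p6 (34741 matched). Values of all probe sets of a gene were averaged per array. Hyp was compared with WT by limma 3.58.1 (R 4.3.3; lmFit, eBayes, two-sided, no covariate), adjusted by Benjamini-Hochberg over 45037 probe sets or 18193 genes, threshold 0.05. Members and lists were chosen with earlier results of these data known. List genes named are those past the threshold, up to 4 with the smallest p, or the 2 smallest p where none passed, plus Mag, Egr2, Erbb3, Ret, Gdnf and Artn whatever their values, and the 3 genes nearest to each member that passed; other genes of the rule were not analysed here. The procedure was tested on simulated data. Alternatives were a replicate block, 3 scalings, array weights, a robust prior, other choices of probe sets and leaving out arrays.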

Additional observations from a re-analysis of the deposited data

Results flagged for a closer look

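In groups of 4 arrays, 1 array lay far from the other 3 in 6 of 154 groups tested (chance flags about 1 in 20). For Sox10 these were WT replicate 3 at 1425369_a_at, at -0.53 with the next at -0.04 (ratio of gap to range 0.881), and Hyp replicate 3 at 1424985_a_at, at 0.12 with the next at 0.02 (0.843). For Mbp they were WT replicate 3 at 1425263_a_at, at -0.54 with the next at 0.01 (0.855), and Hyp replicate 4 at 1433532_a_at, at 0.64 with the next at -0.17 (0.856). Among list genes, Col2a1 was 0.05 in Hyp replicate 4 with the next Hyp array at 0.64 (0.847), and Thbs4 was -0.32 in WT replicate 4 with the next WT array at -1.87 (0.908).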

How the results depend on the processing

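S100b and Fabp7 passed under all 17 alternatives, at 0.82 to 1.05 and -0.63 to -0.49. Pmp22 ranged from -0.55 to -0.34 over 17 alternatives and passed in 13; with both WT replicate 3 and Hyp replicate 2 left out it lay at -0.38 (limma adjusted p = 0.0719), and with 1 array left out between -0.55 and -0.37. Adjusted among probe sets Pmp22 passed under 7 of 16. Sox10 and Gfra3 had an unadjusted exact permutation p of 0.0286 at 0.20, the smallest that 4 against 4 arrays allow. S100b, Fabp7 and Pmp22 had the same value, as does any gene whose groups do not overlap (19.2% of all genes). Gfra3 ranged from 0.15 to 0.24 with 1 array left out. Mbp, at 0, changed sign, at 0.01 with quantile normalization, 0.02 with array weights, 0.04 with both arrays left out and -0.06 to 0.05 with 1 array left out. Gdnf, at 0.01, was 0 with arrays centred on their median, -0.01 with quantile normalization, cyclic loess or array weights, -0.03 with both arrays left out and -0.04 to 0.06 with 1 array left out. Single probe sets near 0 changed sign with 1 array left out: Mbp 1419646_a_at ranged from -0.03 to 0.18, 1425263_a_at from -0.22 to 0.09 and 1436201_x_at from -0.08 to 0.01, Ngfr 1421241_at from -0.02 to 0.07, and Cnp 1418980_a_at from -0.12 to 0.05 and 1437341_x_at from -0.18 to 0.04. With both arrays left out Mbp 1433532_a_at was 0.05 and Ngfr 1421241_at 0. Over all probe sets 1452 passed higher and 1760 lower in Hyp; the counts were 2206 and 2131 with array weights, 885 and 1153 without probe sets of a shared-probe suffix (fewer were tested), and 625 to 2125 and 1055 to 1975 with 1 array left out, lowest without WT replicate 1 and highest without WT replicate 3. Same-numbered arrays correlated in their deviations from the group means at 0.145, -0.0437, 0.262 and 0.179. WT replicates 1, 3 and 4 each correlated best with the Hyp array of the same number, while Hyp replicate 1 correlated best with WT replicate 2 (0.199). These values do not settle whether the numbers mark pairs. The main fit took no pairs, and a block was run as an alternative. With the replicate number as a block 1267 probe sets were higher and 1723 lower, S100b, Fabp7 and Pmp22 passed (limma adjusted p = 0.000431, 0.00268 and 0.0229 in that order) and Sox10 was 0.20 (0.139); among the named list genes Fa2h, Artn, Sfrp5, Fabp5 and Emp1 were lost and Mb and Myh2 gained, and 2 chondrocyte genes rose in place of 5. Taking the probe set with the largest SD for each gene ended the calls of Tspan2, Ret, Sox8, Artn, Npy, Uchl1, Dct and Emp1, cyclic loess those of Artn, Sfrp5 and Fabp4, median centring that of Sfrp5, and leaving out shared-probe suffixes those of Sfrp5, Fabp4 and S100a1. That last setting put Gja1 past the threshold, at -0.27 (limma adjusted p = 0.0478). Hapln1, Tspan2, Mall, Fabp5 and S100a1 were among genes called on gene means with a probe set not passing alone. With both arrays left out the calls of the named genes Sox8, Artn, Npy, Sfrp5, Dct, Hapln1, Adipoq, S100a3, Fabp5 and Emp1 were lost. The Cnp gene mean was then -0.23 (limma adjusted p = 0.0878); with 1 array left out it ranged from -0.18 to 0, and that of Ngfr from 0.04 to 0.12. Other counts that moved by over 1.5 times without 1 array were 2 rises among transcription factors, 2 among adipocyte and 1 among muscle markers without WT replicate 3, 2 among axon and neuron markers without Hyp replicate 3, and 1 fall in the GDNF family without Hyp replicate 4. Causes were not tested. No filter on dim probe sets and no variance trend could be run, since the values hold no level, and Sox10, Mbp and Cnp have no probe set without such a suffix.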
